A study of Homo sapiens with 4 samples.

Results

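The genes described here are those of the CYP1 enzymes and the aryl hydrocarbon receptor (AHR) pathway, 7 of the 61806 genes in the deposited count table. They are CYP1A1, CYP1A2, CYP1B1, AHR, AHRR, ARNT and TIPARP, taken by gene symbol. The set was chosen on measured values of these same libraries, among them the fall of CYP1B1, so the changes of the 7 genes after treatment are given as a description, with no test.

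Poly(A) RNA was sequenced from MDA-MB-231, a human breast cancer line, and MDA-MB-435, a human melanoma line, each labelled as wild type. Each line was left as an untreated control or exposed to 10 µM CPYPP, an inhibitor of DOCK proteins, for 6 h. There were 4 libraries, 1 per condition, with no replicate, and each line stands for 1 established culture rather than for its tumour type. The protocol text names MDA-MB-435 for every sample, so the line was taken from the cell line label.

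AHR is a transcription factor that waits in the cytoplasm with HSP90 chaperones until it binds a small molecule, such as a polycyclic hydrocarbon, dioxin or a tryptophan metabolite. It then enters the nucleus, pairs with ARNT and binds DNA sites with the core letters GCGTG, known as xenobiotic response elements. CYP1A1, CYP1A2 and CYP1B1 are its classical target genes, and AHRR and TIPARP are targets whose products feed back to restrain the receptor. The CYP1 enzymes oxidise hydrocarbons and oestrogens, and CYP1B1 is known for its expression in many tumours.

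A single promoter window is shown for each gene in which the core motif was found, to place it relative to the genes whose counts are described next. Of the 7 genes, 6 matched an entry in the RefSeq promoter table (GRCh38.p14), all but CYP1B1. The 250 bases before the transcription start were searched for GCGTG on both strands, and capitals mark the motif as GCGTG or, on the other strand, as its reverse complement CACGC.
CYP1A1 (chr15:74725529-74725778, minus strand): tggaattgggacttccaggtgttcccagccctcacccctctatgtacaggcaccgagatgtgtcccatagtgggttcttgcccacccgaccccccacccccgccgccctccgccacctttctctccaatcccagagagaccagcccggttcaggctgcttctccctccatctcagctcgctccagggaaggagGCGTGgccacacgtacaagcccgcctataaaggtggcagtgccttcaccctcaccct
AHRR (chr5:321464-321713, plus strand): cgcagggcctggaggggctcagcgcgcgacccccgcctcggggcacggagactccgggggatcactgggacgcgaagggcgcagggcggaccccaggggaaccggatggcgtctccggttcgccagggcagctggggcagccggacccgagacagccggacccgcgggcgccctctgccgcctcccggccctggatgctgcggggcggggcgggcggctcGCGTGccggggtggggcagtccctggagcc
TIPARP (chr3:156674340-156674589, plus strand): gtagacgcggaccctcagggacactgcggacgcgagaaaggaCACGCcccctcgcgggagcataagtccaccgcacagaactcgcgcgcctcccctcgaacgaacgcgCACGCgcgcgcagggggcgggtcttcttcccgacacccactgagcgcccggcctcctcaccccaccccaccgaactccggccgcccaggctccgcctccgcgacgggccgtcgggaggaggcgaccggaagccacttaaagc
In CYP1A1 the match began 57 bases before the start, and in the AHRR window shown it began 30 bases before. The TIPARP window held 2 matches on the other strand, 208 and 142 bases before the start, and it lies inside the TIPARP row of the count table, which begins further upstream. A second AHRR window (chr5:322360-322609, not shown) held 2 matches, 247 and 42 bases before its start, and the other 2 TIPARP windows held none. No match was found for AHR, ARNT or CYP1A2, each with 1 window. Of 35116 promoters of the same length, 32.2% held GCGTG, so a match is common. The longer form TNGCGTG, which contains the first, was held by 4.52% and was present in the AHRR window shown.

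Reads counted on genes came to between 17196385 and 22663954 per library. Levels in CPM, the usual counts scaled to library size, were formed with edgeR's TMM factors, which ran from 0.950 to 1.05. These factors were set within each line and do not match one line to the other, a limit on ratios between untreated lines. Intervals are 95% exact binomial (fold changes) or exact Poisson (levels) intervals. For the ratio of the lines' fold changes they are Wald intervals, a normal approximation. All cover counting error only. A fold change against a library with 0 counts was formed against 3 counts, which is 0.126 to 0.179 CPM. This is a set floor, and it lies below the upper limit of the 95% Poisson interval for 0 counts. Of the 7 melanocyte markers, SOX10, S100B and DCT set the lines apart, and of the 6 epithelial ones KRT19, EPCAM and CDH1 did so most fully. SOX10, a melanocyte factor, had 0 and 1 counts in MDA-MB-231 (control and CPYPP, as throughout) against 3031 and 707 in MDA-MB-435, and CDH1, which encodes E-cadherin, had 837 and 464 against 0 and 0. The melanocyte genes MLANA (8 to 14 counts) and TYR (0 to 3 counts) were at or near 0 throughout. MITF, the melanocyte master regulator, was at a like count in both untreated lines (1585 and 1405), and PMEL, a pigment granule protein, was low and higher in MDA-MB-231 (34 and 29 counts against 13 and 4). The summed level of 7 melanocyte markers was 259 CPM in the untreated and 149 CPM in the treated MDA-MB-435 cells and 71.1 and 43.9 CPM in MDA-MB-231, and that of 6 epithelial markers was 289 and 258 CPM in MDA-MB-435 and 1776 and 1602 CPM in MDA-MB-231. The part of these shifts in the changes below was not tested.

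Among the 7 genes, CYP1B1 showed the widest change. CYP1B1 (ENSG00000138061, chr2:38066973-38109902, minus strand, GRCh38) encodes the CYP1 enzyme most often found outside the liver. It had 7887 counts in the untreated MDA-MB-231 library and 525 after CPYPP, or 344 and 31.3 CPM. The level after CPYPP was 11 times lower (95% interval 10.1 to 12.0), a log2 fold change of -3.46. Both MDA-MB-435 libraries had 0 counts of CYP1B1. Its level in untreated MDA-MB-231 was 2739-fold higher than the level that 3 counts would give in untreated MDA-MB-435. With counting error on both libraries, the lower limit of the ratio was 2227. In these bulk libraries, fewer cells that express a gene and less RNA per cell cannot be told apart.

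Only 2 of the 16441 genes tested in MDA-MB-231, where 1 or both libraries had to reach 10 counts, had a lower ratio than CYP1B1 once counts of 3 or fewer were set to 3. They were GPR15 (58 to 3 counts) and MIR503HG (269 to 16 counts). Among the 5078 genes with at least 1000 counts in the control library, CYP1B1 had the lowest ratio, and the next in order were TNS4 (log2 fold change -2.26, 1211 to 185 counts) and EHF (-2.19, 1157 to 186 counts). These 4 genes were named after their values were seen. The cut of 1000 counts was on the control library alone, where CYP1B1 was high, and CYP1B1 was chosen for its fall. The ranks are thus a description, and nothing is read from them.

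Genes on the opposite strand share positions with CYP1B1, and the strand setting of the read counting is unknown. CYP1B1-AS1, a long noncoding RNA, had 52 and 14 counts in MDA-MB-231 and was called lower by the test on reads described further on, with a ratio of 0.367 (0.188 to 0.673), and had 1 and 0 counts in MDA-MB-435. RMDN2-AS1, on the same strand as CYP1B1 and also called lower, had 17 and 1 counts in MDA-MB-231 (ratio 0.0803, 0.00192 to 0.512) and 1 and 1 in MDA-MB-435. RMDN2, on the opposite strand, had 122 and 98 counts in MDA-MB-231 (ratio 1.10, 0.832 to 1.44) and 96 and 71 in MDA-MB-435. CYP1B1 thus had far more counts than any of these neighbours in the untreated library. In GENCODE v29, an annotation that may differ from the one used for counting, 13% of its exon bases are shared with exons of other genes.

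CYP1A1 (ENSG00000140465, chr15:74719542-74725536, minus strand), the hydrocarbon-oxidising enzyme most used as a readout of AHR, was lower after CPYPP in both lines. MDA-MB-231 had 290 counts untreated and 63 after CPYPP, or 12.7 and 3.75 CPM, a level 3.37 times lower (2.56 to 4.50). MDA-MB-435 had 141 and 52 counts, or 5.91 and 2.81 CPM, a level 2.10 times lower (1.52 to 2.95). The treated library of MDA-MB-231 was below the untreated library of MDA-MB-435. On the log2 scale the ratio of the lines' fold changes, MDA-MB-435 over MDA-MB-231, was 0.68 (0.08 to 1.29), an interval that covers counting error alone. Untreated MDA-MB-231 had 2.14 times (1.75 to 2.64) the level of untreated MDA-MB-435. With TMM factors over all 4 libraries, the log2 of this ratio was 1.13 in place of 1.10.

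CYP1A2 (ENSG00000140505), the CYP1 enzyme of liver, had 1 count in untreated MDA-MB-231 and 0 in the other 3 libraries, so no fold change is given. The 3 enzymes together had 8178 counts in untreated MDA-MB-231, of which CYP1B1 was the larger part, and 588 after CPYPP. In MDA-MB-435 the sum was 141 and 52 counts, all of it CYP1A1.

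**Figure D1:**
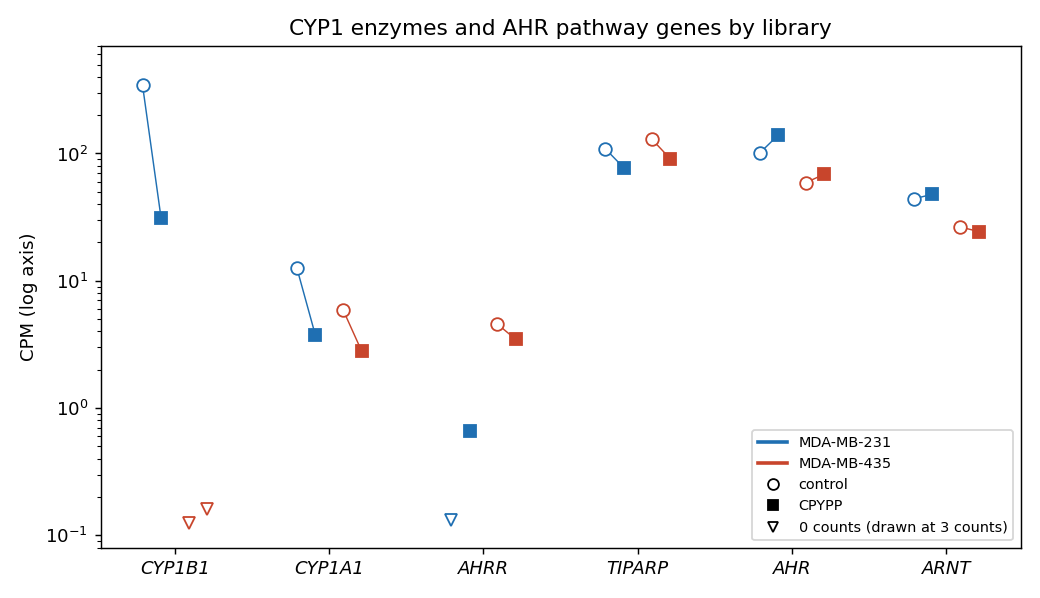
Level of each gene in CPM (log axis) in each library, with open circles for control, filled squares for CPYPP, and lines joining the pair of a cell line. Triangles stand for 0 counts, drawn at the level of 3 counts, and CYP1A2 is left out because it had 1 count in all. CYP1B1 fell from 344 to 31.3 CPM in MDA-MB-231 and had 0 counts in MDA-MB-435.

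AHR itself (ENSG00000106546, chr7:16916359-17346152, plus strand) was not lower after CPYPP in either line. It had 2306 and 2339 counts in MDA-MB-231, or 101 and 139 CPM, a ratio of 1.38 (1.31 to 1.47). In MDA-MB-435 it had 1410 and 1274 counts, or 59.1 and 68.8 CPM, a ratio of 1.17 (1.08 to 1.26). The counts themselves were nearly equal or lower, but the treated libraries had fewer reads. The higher level after treatment thus appears only after scaling to library size. In MDA-MB-231 the log2 fold change was 0.47 with TMM and 0.40 with total counts. With total counts in place of TMM the log2 fold change in MDA-MB-435 moved from 0.22 to 0.07. The log2 ratio of the lines' fold changes was -0.25 (-0.39 to -0.11). An unnamed antisense gene inside AHR had 19 and 11 counts in MDA-MB-231 against 19 and 9 in MDA-MB-435. In GENCODE v29, 32.3% of the exon bases of AHR are shared with exons of other genes.

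ARNT (ENSG00000143437, chr1:150809713-150876708, minus strand), the nuclear partner of AHR, changed least of the genes with a fold change. Its counts were 1009 and 803 in MDA-MB-231, or 44.0 and 47.8 CPM, a ratio of 1.09 (0.989 to 1.19). In MDA-MB-435 they were 632 and 451, or 26.5 and 24.4 CPM, a ratio of 0.920 (0.814 to 1.04). Both intervals include a ratio of 1. AHR and ARNT were both higher in untreated MDA-MB-231 than in untreated MDA-MB-435, by 1.70 times (1.59 to 1.82) and 1.66 times (1.5 to 1.84).

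AHRR (ENSG00000063438, chr5:321714-438291, plus strand), the repressor that competes with AHR for ARNT, had low counts in every library. It had 0 counts in untreated MDA-MB-231 and 11 after CPYPP (0.655 CPM), 5.00-fold higher than 3 counts would give. With counting error on both libraries, the lower limit of the ratio was 3.43. In MDA-MB-435 it had 109 and 64 counts, or 4.57 and 3.46 CPM, a ratio of 0.757 (0.547 to 1.04), whose interval includes 1. The untreated lines were thus the reverse of CYP1B1, with a level of AHRR in MDA-MB-435 34.9-fold higher than 3 counts would give in MDA-MB-231. The lower limit of this ratio, with counting error on both libraries, was 27.9. The readthrough row PDCD6-AHRR, on the same strand, covers the whole gene and had 0 and 1 counts in MDA-MB-231 against 6 and 5 in MDA-MB-435. How reads that fit both rows were counted is unknown, so reads of AHRR may be missing from its counts.

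TIPARP (ENSG00000163659, chr3:156673235-156706770, plus strand) encodes a mono-ADP-ribosyltransferase that marks AHR for breakdown. It had 2494 and 1294 counts in MDA-MB-231, or 109 and 77.1 CPM, a level 1.41 times lower after CPYPP (1.32 to 1.51). In MDA-MB-435 it had 3103 and 1686 counts, or 130 and 91.1 CPM, a level 1.43 times lower (1.34 to 1.52). The fall was of nearly the same size in both lines, with a log2 ratio of their fold changes of -0.02 (-0.14 to 0.11). Total counts in place of TMM gave a log2 fold change of -0.66 in place of -0.51 in MDA-MB-435. TIPARP-AS1, a gene on the opposite strand, had 4 and 7 counts in MDA-MB-231 against 17 and 10 in MDA-MB-435. Untreated MDA-MB-435 had 1.19 times (1.13 to 1.26) the level of untreated MDA-MB-231.

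**Figure D2:**
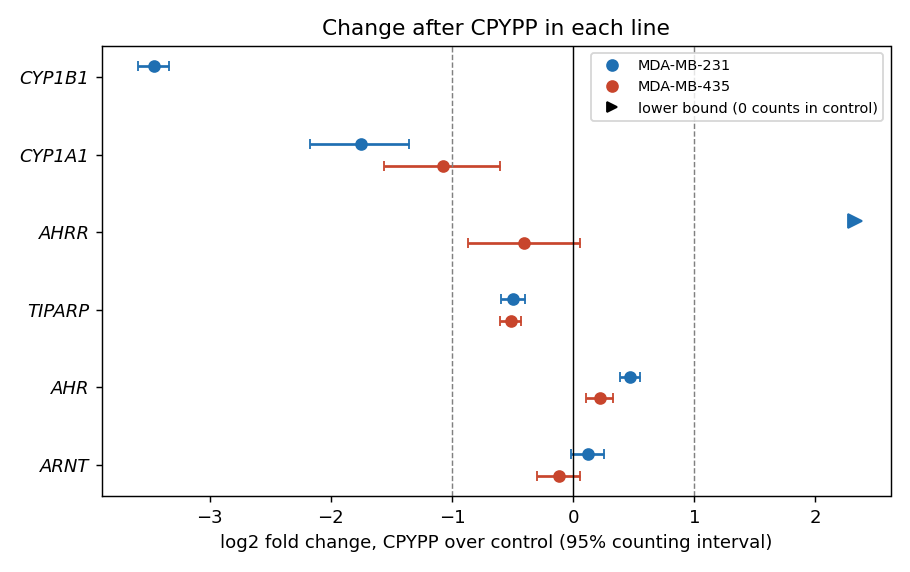
Log2 fold change of CPYPP over control in each line, with bars for the 95% interval of counting error, the triangle for a lower bound and dashed lines at a 2-fold change. CYP1B1 in MDA-MB-231 and CYP1A1 in both lines lie beyond 2-fold lower, TIPARP lies at -0.50 and -0.51, and AHR lies above 0 in both.

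Counted by direction, 2 of the 6 genes tested in MDA-MB-231 were past 2-fold lower (CYP1B1 and CYP1A1) and 1 past 2-fold higher (AHRR, by its bound). Of all genes tested there, 5.43% were past 2-fold lower and 5.4% past 2-fold higher. In MDA-MB-435, 1 of 5 tested genes was past 2-fold lower (CYP1A1) and 0 higher, where 9.75% of all genes were past 2-fold lower and 4.02% higher. Since the genes were chosen by this contrast, nothing is read from these shares. The median log2 fold change of all tested genes was -0.01 (MDA-MB-231) and -0.02 (MDA-MB-435), and with total counts it was -0.08 and -0.16.

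Divided by exon length, the level in untreated MDA-MB-231 was highest for CYP1B1, at 57.5 CPM per kilobase (56.3 to 58.8). TIPARP followed at 22.7, AHR at 12.5, ARNT at 6.83 and CYP1A1 at 3.77, and no neighbouring pair in this order had overlapping intervals. After CPYPP the order was AHR at 17.3, TIPARP at 16.1, ARNT at 7.42, CYP1B1 at 5.23 and CYP1A1 at 1.12. Of the last order, AHR (16.6 to 18.0) and TIPARP (15.2 to 17) had overlapping intervals. In untreated MDA-MB-435 the order was TIPARP at 27.1, AHR at 7.34, ARNT at 4.11, CYP1A1 at 1.76 and AHRR at 0.482 CPM per kilobase, and it was the same after CPYPP.

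The genes with a pattern over the 4 libraries closest to that of CYP1B1, by the root mean square difference of centred log2 CPM among 11182 genes, were SOX9 (0.987), FOXQ1 (1.04), ZNF347 (1.05) and PKP2 (1.07). All 4 had 0 counts in both MDA-MB-435 libraries and fell less in MDA-MB-231. SOX9, a transcription factor, had 1819 and 691 counts, and FOXQ1, a forkhead factor, had 1364 and 333. ZNF347 had 1886 and 895, and PKP2, a desmosome protein, had 1855 and 911. The genes closest to TIPARP were ANKRD13D (0.0247), NOD1 (0.0329), LCMT2 (0.0341) and ITPRIPL2 (0.0377). CYP1B1 was chosen for its fall and had 0 counts in MDA-MB-435, so nothing is read from its larger distances. ANKRD13D had 533 and 286 counts in MDA-MB-231 against 695 and 370 in MDA-MB-435.

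Around the 7 genes, 8 lists of pathway genes with 74 genes in the table were counted. A gene was called at an adjusted p-value (Benjamini-Hochberg) under 0.05 in a two-sided exact binomial test on the reads of the line's control and CPYPP libraries, with a fold change over 2. This test compares those libraries, not the conditions. In MDA-MB-231, 3 of the 59 listed genes tested were called higher and 0 lower, where 4.22% and 3.09% of all genes were. In MDA-MB-435, 3 of 54 were higher and 2 lower, where 3.17% and 6.52% of all genes were. The median log2 fold change of the listed genes was 0.08 and 0.17. The shares called higher, 5.08% and 5.56%, thus came from 3 genes in each line.

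Of the 7 receptor chaperones and partners, 1 was called higher in MDA-MB-231. The calls in MDA-MB-435 were 2 higher and 1 lower, and the median log2 fold change was 0.30 and 0.17 in the respective lines. HSP90AA1, the inducible HSP90 that holds AHR in the cytoplasm, had 67706 and 144260 counts in MDA-MB-231 against 52640 and 125895 in MDA-MB-435, with ratios of 2.91 (2.88 to 2.93) and 3.08 (3.05 to 3.12). HSP90AB1, the constitutive form, was called in MDA-MB-435 (ratio 2.07, 2.06 to 2.09) and had a ratio of 1.72 (1.70 to 1.74) in MDA-MB-231. Both have near-identical copies with which they may share reads. ARNT2, a relative of ARNT, was called lower in MDA-MB-435, with 295 and 109 counts (ratio 0.476, 0.379 to 0.595), and had 1179 and 501 counts in MDA-MB-231 (ratio 0.580, 0.521 to 0.644).

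Of 9 coactivators and other interacting factors, 1 was called higher in each line, NCOA3 in both, and the medians were 0.40 and 0.23. NCOA3, a histone acetyltransferase-recruiting coactivator, had 1453 and 2473 counts in MDA-MB-231 (log2 fold change 1.22) and 1691 and 3525 in MDA-MB-435 (1.43). None of the 4 tested genes of tryptophan and kynurenine metabolism, a source of AHR ligands, was called, with medians of -0.04 and 0.14. The same held for the 4 partners that pass electrons to cytochromes P450, at 0.01 and 0.16. It also held for the other ARNT partners, at 0.19 over 4 genes and 0.23 over 3. None of 11 other genes of the mono-ADP-ribosyltransferase family was called, at -0.07 and -0.22.

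Of 10 other reported AHR target genes tested in MDA-MB-231, 0 were called in either direction, with a median log2 fold change of -0.05 (3.09% of all genes were called lower). Of 8 in MDA-MB-435, 1 was called lower, with a median of -0.15 (6.52% of all genes). That gene was EREG, an EGF family ligand, with 18 and 3 counts (ratio 0.215, 0.0406 to 0.736), and in MDA-MB-231 it had 1619 and 698 counts (log2 fold change -0.77). NQO1, a quinone reductase that NRF2 also drives, had 4805 and 5417 counts in MDA-MB-231 against 4252 and 5206 in MDA-MB-435, log2 fold changes of 0.62 and 0.66 that did not pass 2-fold. CDKN1B, a cell cycle inhibitor, had 1397 and 514 counts in MDA-MB-231 and a log2 fold change of -0.99, just inside 2-fold. NQO1 and CDKN1B were chosen after their values were seen.

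Among 10 hypoxia target genes tested in MDA-MB-231, which depend on ARNT through its pairing with HIF proteins, 1 was called higher, and of 8 in MDA-MB-435 none was, with medians of 0.22 and 0.23. The called gene was ADM, which encodes the peptide adrenomedullin, with 1120 and 3362 counts (log2 fold change 2.03), and in MDA-MB-435 it had 1252 and 1796 counts (0.89).

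**Figure D3:**
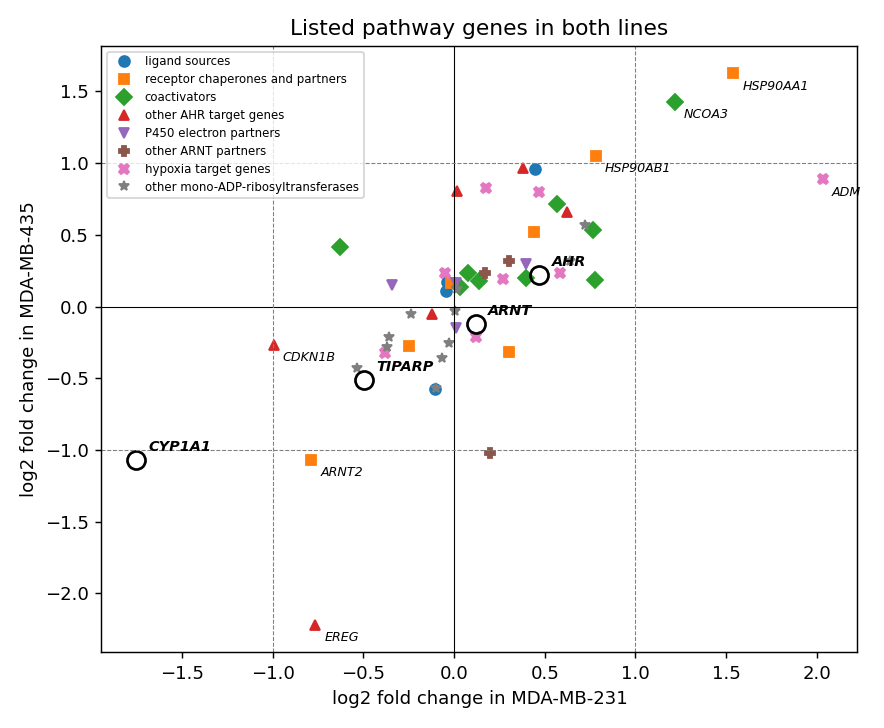
Log2 fold change after CPYPP in MDA-MB-231 (horizontal) and MDA-MB-435 (vertical) for listed pathway genes tested in both lines, with a marker for each list and dashed lines at a 2-fold change. Black circles mark CYP1A1, AHR, ARNT and TIPARP. HSP90AA1 and NCOA3 lie past 2-fold higher in both lines, and CYP1A1 is the only circled gene past 2-fold lower in both.

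A fit over all 4 libraries with the line as a term (edgeR's quasi-likelihood test, 1 residual degree of freedom) gave a common effect of CPYPP for 10 higher and 3 lower of 61 listed genes at an adjusted p-value under 0.05, where 4.99% and 3.58% of 16748 genes were. The higher genes were HSP90AA1, ADM, NCOA3, HSP90AB1, NFE2L2, CREBBP, ZC3HAV1, NQO1, KDM3A and PTGES3, and the lower ones were ARNT2, EREG and CDKN1B. Those of them not named above were picked out after this fit was seen. With DESeq2 in place of edgeR the 10 higher genes were the same and only ARNT2 was still lower (EREG adjusted p = 0.135, CDKN1B adjusted p = 0.191 by DESeq2). With total counts in place of TMM, CUL4B, PARP10 and PARP12 were lower as well and VEGFA was higher. The largest common rise was that of HSP90AA1 (log2 fold change 1.54 ± 0.13 SE, adjusted p = 3.89e-06 by edgeR), and the largest fall was that of ARNT2 (-0.95 ± 0.17 SE, adjusted p = 0.00313 by edgeR). No variation between cultures enters these SE values, since each condition had 1 library. An SE here is also not the gene's own gap between the lines. HSP90AA1 had log2 fold changes of 1.54 and 1.62 (MDA-MB-231, then MDA-MB-435), with an SE of 0.13. Those of ADM lay much further apart, at 2.03 and 0.89, yet its SE was 0.20. The adjusted p-values are thus no measure of how closely the lines responded. Without the term for the line, 0 listed genes passed edgeR's test, and 4 had an unadjusted p under 0.05.

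Outside the CYP1 family, most of the 52 other cytochrome P450 genes in the table were too low to test. Of 15 tested in MDA-MB-231, 2 were called higher and 2 lower (median log2 fold change -0.14), where 4.22% and 3.09% of all genes were. Of 18 in MDA-MB-435, 2 were higher and 1 lower (-0.08), where 3.17% and 6.52% of all genes were. CYP24A1, which breaks down vitamin D, had 104 and 20 counts in MDA-MB-231 (ratio 0.262, 0.154 to 0.426) and 0 and 0 in MDA-MB-435. CYP4F12 had 20 and 2 counts in MDA-MB-231 against 13 and 2 in MDA-MB-435, ratios of 0.136 (0.0155 to 0.562) and 0.198 (0.0217 to 0.876), and was called lower in both lines. In MDA-MB-435 that call was lost (adjusted p = 0.0544 by the exact test) when the p was taken as the doubled smaller tail. CYP4F11 had 5 and 42 counts in MDA-MB-435, 10.8 times higher (4.29 to 35.1), and 1 and 7 in MDA-MB-231. CYP4F3 had 1 and 21 counts in MDA-MB-435, where it was called higher (ratio 27.1, 4.36 to 1120), and 0 and 9 in MDA-MB-231. The fit over all 4 libraries held 17 of these other P450 genes, with 1 called higher and 0 lower. That gene was CYP4F3 (log2 fold change 4.93 ± 1.05 SE, adjusted p = 0.00969 by edgeR). Of all genes in that fit, 4.99% were called higher and 3.58% lower. The CYP4F genes are close copies of each other, so the split of reads among them is uncertain. The higher genes in MDA-MB-231 were CYP39A1 (8 and 22 counts) and CYP27C1 (7 and 17 counts), named after their values were seen.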

How the data were processed

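Total RNA was extracted with TRIzol and poly(A) RNA was made into libraries. The submitters' processing notes name cutadapt 1.9.1, HISAT2 2.2.1, HTSeq 0.6.1, DESeq2 and the build GRCh37.p13. The authors deposited the raw counts of each gene, not normalized, with positions and exon lengths. Of 58254 identifiers shared with GENCODE v29, 58204 have an overlapping position, so the positions are those of GRCh38. The strand setting and the annotation version are not given in the sources used here.

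Counts were analysed with edgeR 4.0.16 and DESeq2 1.42.0 (R 4.3.3) and with scipy 1.17.1, numpy 2.4.6 and pandas 2.3.3 (Python 3.11.15). Depth ran from 17196385 to 22663954 counts per library. For levels, fold changes and calls within a line, TMM factors were set within each line over genes that reached 10 counts in 1 or both libraries. The ratios between untreated lines used these factors too. The fit over all 4 libraries used TMM factors over all 4 libraries, without this filter. Within a line, fold changes were formed with counts of 3 or fewer set to 3, except where a ratio is given with its interval. The tests were the exact binomial test and edgeR's quasi-likelihood test (filterByExpr, line as a term). Each had Benjamini-Hochberg adjustment over all genes tested, and both were run on simulated data. The simulation for the binomial test had counting error alone, and that for the quasi-likelihood test had the same change in both lines. Neither shows how the tests act with the variation between cultures, which is unknown here.

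The 7 genes and the lists were chosen with earlier results of these data known. The TMM filter and the way the binomial p is summed over both tails were also settled after results had been seen, and the earlier forms stand among the alternatives. Named were the 7 genes, rows that overlap them, at most 4 called genes per list by size of change, and the 4 closest patterns to CYP1B1 and to TIPARP, with others marked as chosen later. The lists were ligand sources, chaperones and partners, coactivators, other AHR targets, P450 electron partners, other ARNT partners and hypoxia targets. Further lists were other genes of the mono-ADP-ribosyltransferase family and other P450 genes. Alternatives concerned normalization, filters, an assumed coefficient of variation of 0.2 or 0.4, a fold change without a test, a prior count of 0.5, DESeq2, no term for the line, and lists without 4 NRF2 targets.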

Additional observations from a re-analysis of the deposited data

How the results depend on the processing

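No reversal occurred, and 76 of 78 alternative values of the 6 genes with a fold change stayed within the counting interval of the value reported, those of CYP1B1 in MDA-MB-231 among them. AHRR in MDA-MB-231 has no upper limit, so a rise could not leave it, and its log2 fold change went from 2.32 to 4.97 with a prior count of 0.5. The 2 that moved, both with total counts, were AHR and TIPARP in MDA-MB-435. With at least 10 counts required in both libraries, MDA-MB-231 had 457 genes called higher in place of 694 and 271 lower in place of 508, while 602 in place of 1078 lower in MDA-MB-435, where 1 listed gene in place of 2 was lower because EREG was no longer tested. With an assumed coefficient of variation of 0.2, MDA-MB-231 had 113 higher and 43 lower genes, and MDA-MB-435 had 124 higher in place of 524 and 147 lower, and there 0 listed genes were lower. With 0.4 these counts were 4, 0, 13 and 1, and 0 listed genes were called in either line. A fold change without a test gave 893 lower in MDA-MB-231. With total counts, DESeq2 size factors, TMM over all 4 libraries or TMM over unfiltered genes, 1 listed gene in place of 0 was lower in MDA-MB-231, CDKN1B. For the common effect, total counts gave 1087 genes in place of 599 and 6 listed genes in place of 3 lower, and DESeq2 gave 291 and 1. Without the term for the line, edgeR called 0 genes higher and 0 lower, in place of 836 and 599, and 162 genes had an unadjusted p under 0.05. With the binomial p as the doubled smaller tail, a form added after the data were seen, MDA-MB-231 had 639 higher and 472 lower genes against 500 and 1052 for MDA-MB-435. The common effect had the line as its block. Beyond that, no pairing by replicate number could be made, since the labels carry none. Intervals cover counting error, so how far 2 cultures of a line would differ is unknown.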
